A study of Mus musculus with 6 samples.

Results

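The genes described here are 10 that carry glucose into the cell, turn pyruvate into lactate or into acetyl-CoA, carry lactate out and buffer the acid that leaves with it: Slc2a1, Slc2a3, Slc16a1, Slc16a3, Bsg, Ldha, Ldhb, Pdha1, Car9 and Car12. They are a fixed list of names, out of 21717 genes that had at least 1 count, drawn up with earlier results of these data known. All 10 have an identifier in the count tables, and 9 of them passed the filter on low counts, together with 12088 genes in all. Slc2a3 did not.

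Tumor epithelial cells, sorted as CD45-EPCAM+ cells, came from 6 mammary tumors of the MMTV-PyMT model on the FVB/N background, where the MMTV promoter drives the polyoma middle T antigen in the mammary epithelium. Every mouse was female and was given the anti-VEGF-A antibody B20-4.1.1 intraperitoneally at 5 mg/kg, 2 times per week, from 7 weeks of age, and tumors were taken after 6 weeks. The 6 tumors form 1 group in the labels, which do not state which tumors became hypoxic, so they are numbered 1 to 6 and no classes were compared. Tumors without B20-4.1.1 were not analysed here, so nothing below is a change caused by treatment.

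A tumor cell takes up glucose through facilitative transporters, of which GLUT1 (Slc2a1) is the common form of proliferating and epithelial cells and GLUT3 (Slc2a3) a high-affinity form best known from neurons and white blood cells. Lactate dehydrogenase, a tetramer of LDHA and LDHB subunits, interconverts pyruvate and lactate, while the pyruvate dehydrogenase complex, whose E1 alpha subunit is the product of Pdha1, commits pyruvate to the mitochondrion. Lactate leaves together with a proton through MCT1 (Slc16a1) or MCT4 (Slc16a3), both of which need basigin (Bsg) to reach the membrane, and the extracellular carbonic anhydrases CAIX (Car9) and CAXII (Car12) help to handle the exported acid. Slc2a1, Slc16a3, Ldha and Car9 are textbook targets of the hypoxia-inducible factors (HIF).

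Counts on genes ranged from 2509482 to 5893246 per tumor, and 3 counts, taken as the floor of detection, corresponded to 0.509 to 1.20 CPM, a gene's count over the library's total on the usual common scale. The library of tumor 1 stood apart. Its median Pearson's r with the rest, over 8873 genes, was 0.788, that of each other library 0.905 to 0.939, and 34.2% of all filtered genes had their highest CPM in it. The 7 luminal epithelial markers, Epcam among them, summed to between 3957 and 4874 CPM. The 10 immune markers summed to between 104 and 305 CPM, of which S100a8, also made by epithelia, gave 73.8 to 230 CPM. Without it the other 9 reached 230 CPM in tumor 3 and at most 52.5 CPM elsewhere, with Ptprc at 0.797 to 3.39 CPM and the T cell gene Cd3e at 4 counts over all tumors. The sum of 7 erythroid genes was 865 CPM in tumor 3, elsewhere no more than 69.6 CPM. Endothelial, fibroblast and adipocyte markers reached at most 4.12, 23.8 and 2.18 CPM. The 5 basal epithelial markers summed to 375 CPM in tumor 5 and to between 106 and 250 CPM elsewhere. Most of the sum in tumor 5 was Krt14, at 359 CPM, whereas Krt5 and Trp63 were highest in tumor 4. The part of this difference in the values of tumor 5 given below was not tested. In bulk samples such as these, fewer expressing cells and less RNA per cell cannot be told apart.

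Of the 2 facilitative glucose transporters, Slc2a1 was detected in all tumors and Slc2a3 was not above the floor in any. Slc2a1 (ENSMUSG00000028645) is at chr4:119108711-119137983 of GRCm38 (plus strand), the build of all positions given. Its level was 156, 92.1, 137, 185, 212 and 146 CPM in tumors 1 to 6. Tumors 5 and 4 were the highest and tumor 2 the lowest, a 2.30-fold range, and the exact 95% Poisson intervals of neighbors in this order overlapped for tumors 1, 6 and 3. Slc2a3 (ENSMUSG00000003153), at chr6:122727809-122801640, minus strand, had 1 count in tumor 4 and 0 counts in the other 5, with upper limits of the exact 95% Poisson intervals of 0.626 to 1.47 CPM. It was at 0 counts in tumor 3 too, where the immune markers were highest. Slc2a1 therefore made up 99.9 to 100% of the counts of the pair in each tumor. Whether reads of Slc2a3 were lost in counting was not tested.

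Of the 10 other glucose carriers examined, 5 passed the filter and 3 averaged at least 10 CPM. By mean CPM, which does not allow for length, they were Slc2a9, a urate transporter (35.7 to 67.7 CPM), Slc5a1, the sodium-coupled glucose transporter SGLT1 (19.5 to 47.8 CPM), and Slc2a8, an intracellular form (10.6 to 32.6 CPM). Slc2a10 lay at 1.99 to 5.77 CPM, and Slc2a4, the insulin-responsive transporter GLUT4, at 1.45 to 7.17 CPM. Slc2a2, the transporter of liver and pancreatic islets, and Slc5a2, that of the kidney tubule, had 0 counts in all tumors, and Slc2a5, Slc2a6 and Slc2a12 had 2, 7 and 7 counts in all. Of the 5 that passed, 0 had their highest value in tumor 5, where 18.5% of all filtered genes did, so this count is near the background.

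Both lactate carriers were detected in every tumor and varied widely. Slc16a1 (ENSMUSG00000032902), at chr3:104638668-104658462, plus strand, stood at 6.45, 16.3, 8.24, 27.9, 37.3 and 24.0 CPM in tumors 1 to 6, from 34 to 187 counts. Tumors 5, 4 and 6 were the highest and tumors 3 and 1 the lowest, a 5.79-fold range, or 4.53-fold without tumor 1. In this order the intervals of neighbors were separate only between tumor 2 and tumor 3. Slc16a3 (ENSMUSG00000025161), at chr11:120948480-120960868, plus strand, stood at 22.6, 6.38, 4.61, 20.8, 39.9 and 5.66 CPM in tumors 1 to 6, from 16 to 200 counts. Tumors 5, 1 and 4 formed the upper end and tumors 2, 6 and 3 the lower, with separate intervals between these ends, and the range was 8.67-fold.

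The balance of the 2 carriers changed from tumor to tumor. Of the counts of Slc16a1 and Slc16a3 together, Slc16a3 took 77.8% in tumor 1 (exact binomial 95% interval 70.8 to 83.8%), 28.1% in tumor 2 (17.0 to 41.5%), 35.8% in tumor 3 (23.1 to 50.2%), 42.8% in tumor 4 (36.3 to 49.5%), 51.7% in tumor 5 (46.6 to 56.8%) and 19.1% in tumor 6 (13.2 to 26.2%). Tumor 1 was thus the one with a clear excess of Slc16a3, and tumor 6 the one with the clearest excess of Slc16a1. Since both genes are read from the same library, this share does not move with the scaling of the libraries. In tumor 5, where both carriers were highest, the counts were close to parity.

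Bsg, the escort of both carriers, had a higher level than either, both per length and by CPM. It (ENSMUSG00000023175) is at chr10:79704491-79711969, plus strand, and its level was 157, 153, 234, 195, 342 and 288 CPM in tumors 1 to 6. Tumors 5 and 6 were the highest and tumors 1 and 2, whose intervals overlapped, the lowest, a 2.23-fold range. Embigin (Emb), the related escort of MCT2, was at 0.339 to 5.39 CPM, and MCT2 itself (Slc16a7) at 1.36 to 3.15 CPM. Of the 15 other monocarboxylate carriers and partners, 7 passed the filter and 4 averaged at least 10 CPM. Among these were the mitochondrial pyruvate carrier subunit Mpc2 (74.0 to 124 CPM), the sodium-coupled carrier Slc5a8 (56.6 to 109 CPM) and Slc16a6 (9.76 to 48.7 CPM). Mpc1, the partner of Mpc2 in the same carrier, was at 2.67 to 8.65 CPM.

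**Figure D1:**
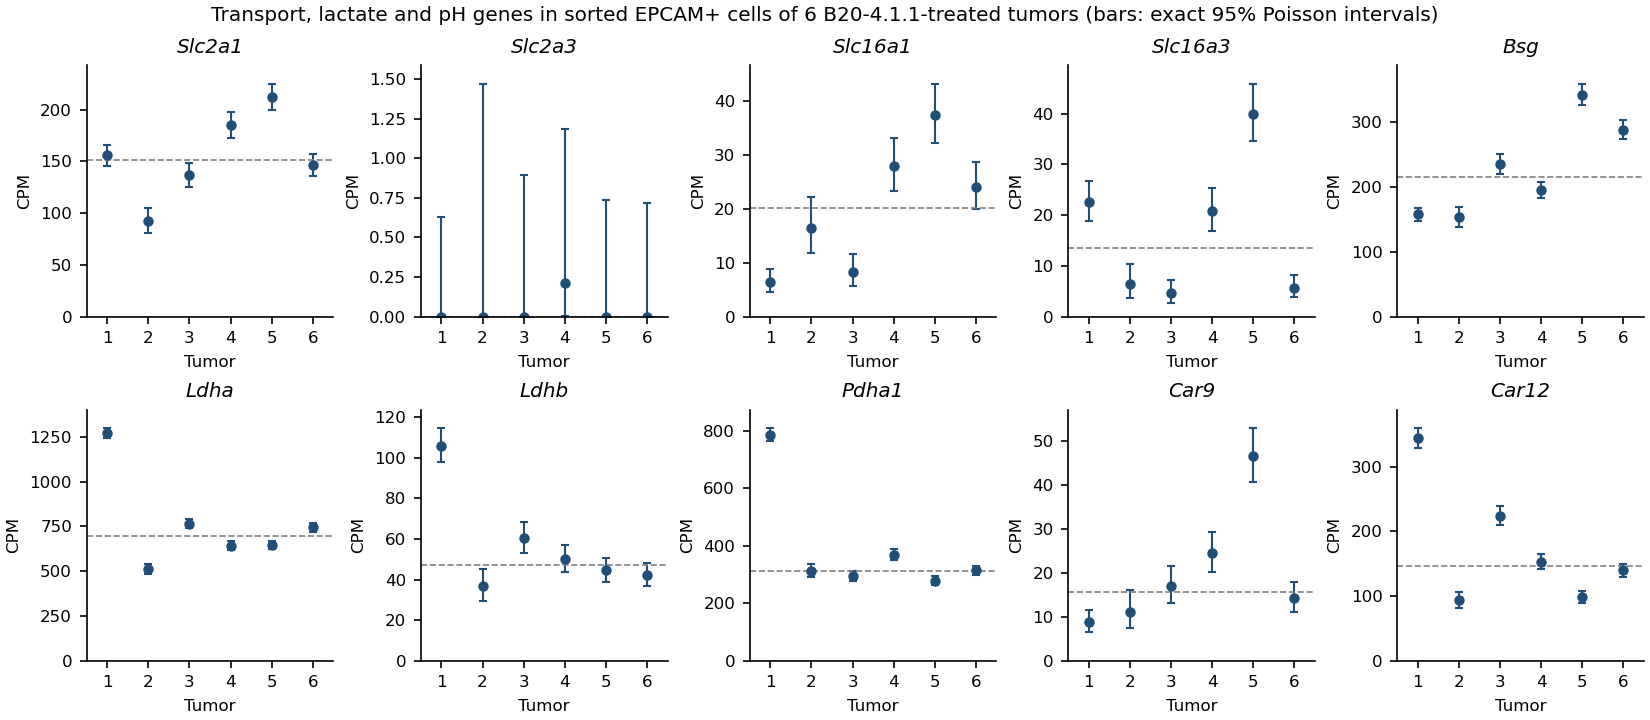
Level of each of the 10 genes in the 6 B20-4.1.1-treated tumors, in CPM (vertical axis from 0, a scale for each gene) by tumor number. Points are single tumors, bars the exact 95% Poisson intervals (counting error only) and the dashed line the median; Slc2a1, Slc16a1, Slc16a3, Bsg and Car9 peak in tumor 5, and Ldha, Ldhb, Pdha1 and Car12 in tumor 1.

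Car9 had tumors 5 and 4 as its highest pair, as Slc2a1 did. Car9 (ENSMUSG00000028463), at chr4:43506966-43513729, plus strand, was at 8.82, 11.2, 17.0, 24.5, 46.5 and 14.3 CPM in tumors 1 to 6, from 28 to 233 counts. Tumor 5 was above tumor 4 without overlap of the intervals, and the range was 5.27-fold. Car12 (ENSMUSG00000032373), at chr9:66713686-66766845, plus strand, was at 344, 93.2, 224, 153, 98.0 and 140 CPM in tumors 1 to 6. Its order was another one, with tumors 1 and 3 at the top and tumors 5 and 2, which overlapped, at the bottom. Car9 therefore gave 2.5% of the counts of the pair in tumor 1 (1.87 to 3.27%) and 32.2% in tumor 5 (28.8 to 35.7%), with 7.04 to 13.8% in the other 4. Tumor 5 thus combined the highest Car9 with a Car12 level close to the lowest.

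Among 15 further carbonic anhydrases and carriers of protons or bicarbonate, 9 passed the filter and 7 averaged at least 10 CPM. Of these 9, 5 were highest in tumor 5, where 18.5% of all filtered genes were. The secreted Car6 ran from 51.8 CPM in tumor 1 to 526 CPM in tumor 3, close to the 525 CPM of tumor 6. Tumor 3 also held the erythroid and immune counts, whose part in this was not tested. The anion exchanger Slc4a2 lay at 27.8 to 81.7 CPM, the mitochondrial Car5b at 29.6 to 75.5 CPM and the bicarbonate cotransporter Slc4a7 at 24.4 to 42.9 CPM. The cytosolic Car2 lay at 14.3 to 50.3 CPM, highest in tumor 5. Car13, another cytosolic form, named after its values were seen, lay at 2.39 to 12.2 CPM. By CPM it had the same order of the 6 tumors as Slc2a1. Car1, an enzyme of red blood cells, and Car4, another membrane-bound form, had 0 counts in all tumors.

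**Figure D2:**
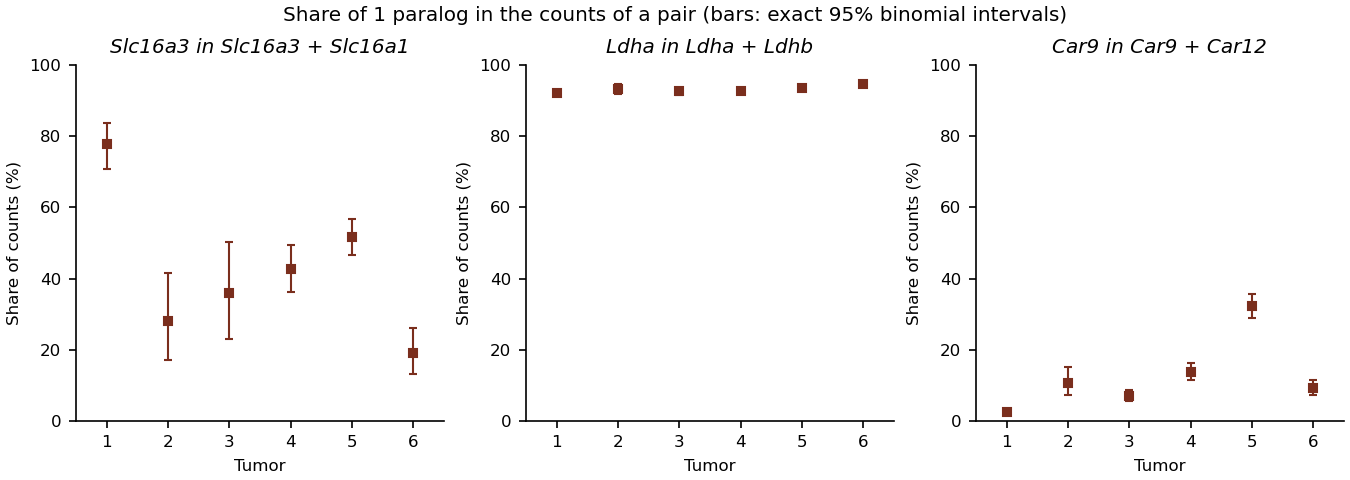
Share (percent of the counts of the pair, vertical axis from 0 to 100) of Slc16a3 against Slc16a1, Ldha against Ldhb and Car9 against Car12, by tumor number. Points are single tumors and bars exact 95% binomial intervals; the Slc16a3 share runs from 19.1 to 77.8% and that of Car9 from 2.5 to 32.2%, whereas that of Ldha stays between 92.3 and 94.6%.

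The lactate dehydrogenase genes, like Car12, were highest in tumors 1 and 3 and lowest in tumor 2. Ldha (ENSMUSG00000063229), at chr7:46841475-46855627, plus strand, was at 1269, 513, 765, 643, 645 and 744 CPM in tumors 1 to 6. Ldhb (ENSMUSG00000030246), at chr6:142490249-142507957, minus strand, was at 106, 36.7, 60.4, 49.99, 44.5 and 42.4 CPM in tumors 1 to 6. With TMM, tumor 6 exceeded tumor 3 for Ldha. Without tumor 1 the range shrank from 2.47-fold to 1.49-fold for Ldha and from 2.89-fold to 1.65-fold for Ldhb. Tumor 5, the highest for all the carriers and for Car9, was near the median for both dehydrogenases.

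The subunits kept a nearly fixed proportion. Ldha made up 92.3% of the counts of the pair in tumor 1 (91.7 to 92.9%), 93.3% in tumor 2 (91.9 to 94.6%), 92.7% in tumor 3 (91.8 to 93.5%), 92.8% in tumor 4 (91.8 to 93.6%), 93.5% in tumor 5 (92.7 to 94.3%) and 94.6% in tumor 6 (93.9 to 95.3%). The interval of tumor 6 lay above those of tumors 1, 3 and 4 and overlapped those of tumors 2 and 5. Both values are uncertain to some degree, since near-identical copies can split or remove reads. For the 12 coding transcripts of Ldha, 0 to 48.6% of the 50-base stretches within the final 300 bases (median 27.9%) also occur in 1 or more of 13 other genes, and for Ldhb 4.38 to 25.1% occur in Gm5514. Of the other lactate dehydrogenase genes, Ldhd, which acts on D-lactate, was at 40.6 to 78.4 CPM, and the testis form Ldhc and Ldhal6b had 8 and 3 counts in all tumors together.

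Pdha1 (ENSMUSG00000031299), at chrX:160122209-160138413, minus strand, was separated most from the rest in tumor 1 among the 4 genes highest there. Its level was 787, 313, 296, 370, 279 and 315 CPM in tumors 1 to 6. Without tumor 1 it had the narrowest range of the 9 genes, 1.32-fold. In its last 300 exon bases, 33.7% of the positions are also exonic on the opposite strand, in Map3k15, and whether counting used the strand is not given in the sources used here. The ratio of Ldha to Pdha1 counts, chosen after the values were seen, was 1.61, 1.64, 2.59, 1.74, 2.31 and 2.36 in tumors 1 to 6, in that order. It was low in tumors 1, 2 and 4, among them tumor 1, where both genes were at their highest.

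Of 10 other genes of the pyruvate dehydrogenase complex and its regulators, 9 passed the filter and 3 of these were highest in tumor 1, a count near the background of 34.2% of all filtered genes. Pdhb, the partner of Pdha1 in the E1 enzyme, lay at 51.0 to 98.5 CPM with 66.9 CPM in tumor 1, and Dlat, the E2 enzyme, at 56.7 to 78.1 CPM with its lowest value in tumor 1. The inhibitory kinase Pdk1, itself a HIF target, lay at 52.7 to 97.0 CPM, highest in tumor 4, and Pdk2 at 36.1 to 133 CPM, highest in tumor 1. Pdk4, the kinase induced by fasting, had 5 counts in all tumors.

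Among 9 genes around the first step of glucose use, 6 passed the filter. Hk1, the broadly expressed hexokinase, lay at 142 to 466 CPM, highest in tumor 1 and lowest in tumor 5, and the inducible Hk2 at 41.6 to 114 CPM, highest in tumor 2. Txnip, which restrains glucose uptake by GLUT1 and is itself raised by glucose, ran from 17.6 CPM in tumor 1 to 150 CPM in tumor 3, an 8.51-fold range, and its relative Arrdc4 from 15.9 to 28.0 CPM.

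**Figure D3:**
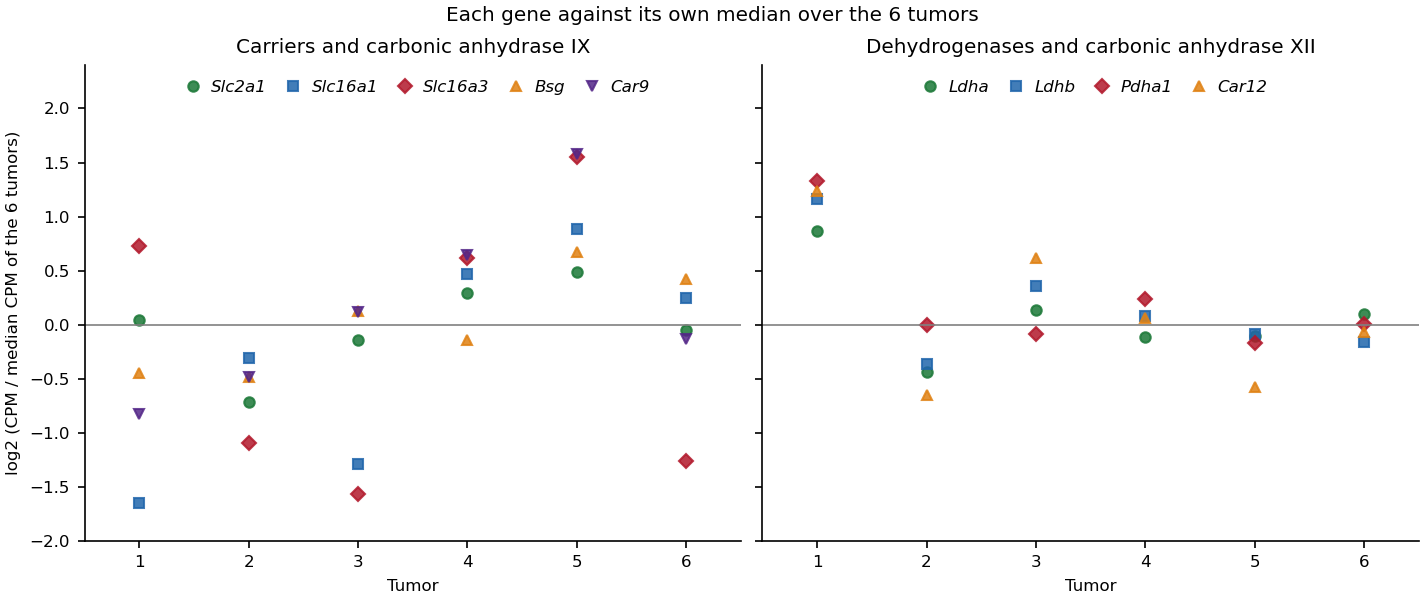
log2 of the CPM of each gene over its own median in the 6 tumors (vertical axis), by tumor number, with the carriers, Bsg and Car9 on the left and the dehydrogenases and Car12 on the right. Each symbol is 1 gene in 1 tumor; on the left, all 5 genes are highest in tumor 5, and on the right all 4 are highest in tumor 1.

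Set beside each other, the 9 genes above the filter had their highest value in tumor 5 or in tumor 1, also with TMM, DESeq2's size factors and CPM without the 10 most abundant genes. Slc2a1, Slc16a1, Slc16a3, Bsg and Car9 were highest in tumor 5 (5 of 9, against 18.5% of all filtered genes) and Ldha, Ldhb, Pdha1 and Car12 in tumor 1 (4 of 9, against 34.2%). Tumors 5 and 4 were the highest pair for Slc2a1, Slc16a1 and Car9 (3 of 9, against 8.88%). The lowest tumor was tumor 2 for Slc2a1, Bsg, Ldha, Ldhb and Car12 (5 of 9, against 24.6%), tumor 1 for Slc16a1 and Car9, tumor 3 for Slc16a3 and tumor 5 for Pdha1. With TMM the lowest was tumor 1 for Bsg (153 against 158 CPM in tumor 2) and tumor 5 for Car12 (95.8 against 96.6 CPM in tumor 2). Tumor 1 exceeded the median of the other 5 at least 1.5-fold for 5 of the 9 genes, against 29.0% of all filtered genes. The factor was 1.97 for Ldha, 2.38 for Ldhb, 2.51 for Pdha1, 2.47 for Car12 and 3.54 for Slc16a3, whereas it was 1.07 for Slc2a1 and 0.671 for Bsg, and 0.520 and 0.269 for Car9 and Slc16a1. The part of the deviating library of tumor 1 in these factors was not tested. The library of tumor 2 was the smallest, with 2509482 counts on genes, and had the largest share of reads not assigned to a gene, 41.4%. Its part in the low values of tumor 2 was not tested either. These peaks were read from the values, so the percentages describe and test nothing.

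All 9 genes differed between their highest and lowest tumor by more than counting error, in that the exact 95% Poisson intervals of the CPM did not overlap, but 88.8% of all filtered genes did so as well. The same held for all 9 without tumor 1, where 73.8% of filtered genes did. The spread between tumors was therefore set against that of all genes, as the biological coefficient of variation of edgeR, which takes counting error out and is moderated toward genes of like abundance. It was 0.63 for Slc16a3, 0.52 for Slc16a1 and 0.49 for Car9, at the 97.6th, 94.1st and 91.1st percentile of all genes once divided by the trend at their level. It was 0.42 for Car12 and 0.38 for Pdha1, at the 85.1st and 75.1st percentile. For Ldhb, Bsg, Ldha and Slc2a1 it was 0.36, 0.35, 0.33 and 0.31, at the 70.1st, 62.5th, 54.1st and 43.9th percentile, and the median over 12088 genes was 0.35. Without tumor 1 the values were 0.62 for Slc16a3, 0.40 for Slc16a1 and 0.40 for Car9, but 0.22 for Ldha, 0.22 for Ldhb and 0.21 for Pdha1. The proton-coupled carriers and Car9 thus had the highest values with and without tumor 1, and those of Ldha, Ldhb and Pdha1 were the lowest of the 9 genes without it.

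**Figure D4:**
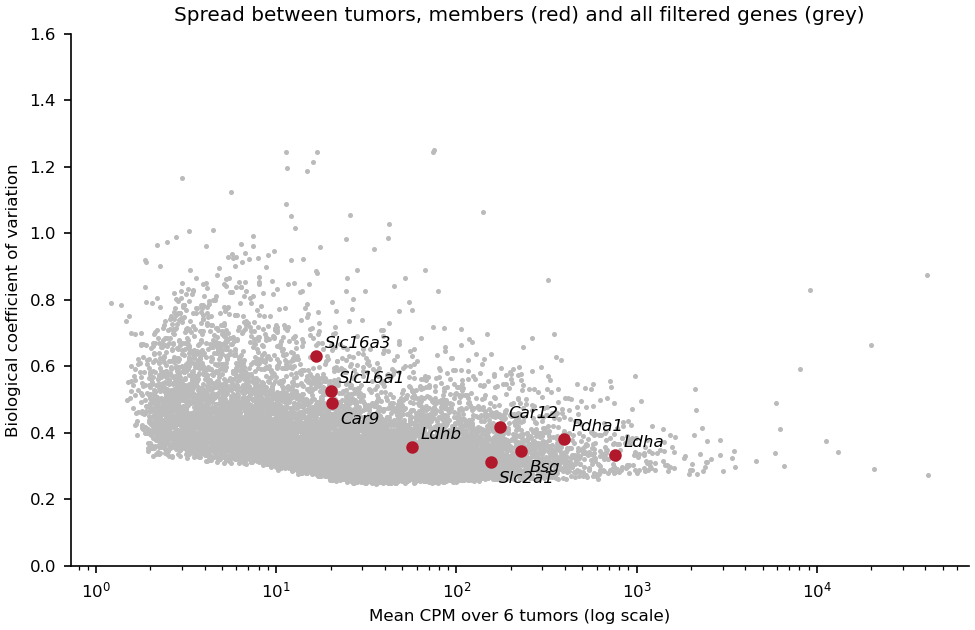
Biological coefficient of variation between the 6 tumors (vertical axis, from edgeR) against the mean CPM (horizontal axis, log scale). Grey points are the 12088 genes above the filter and red points the 9 genes described here; Slc16a3, Slc16a1 and Car9 have the highest values of the 9, from 0.49 to 0.63.

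To set different genes side by side, levels were also computed as TPM, CPM divided by union exon length and rescaled. A 3′ library yields about 1 fragment per transcript whatever its length. CPM is therefore the closer scale here, though not exact, and division by length can shift the order. Per length the median level was 532 TPM for Ldha, 305 for Bsg, 214 for Pdha1, 108 for Slc2a1, 77.4 for Ldhb, 49.1 for Car12, 16.9 for Car9, 11.5 for Slc16a1 and 6.74 for Slc16a3, and Slc2a3 had a median of 0. By CPM, without length, the medians of Pdha1 (314) and Bsg (215), of Car12 (146) and Ldhb (47.3), and of Slc16a1 (20.2) and Car9 (15.6) stood in the opposite order. On the TPM scale the ranges over the 6 tumors overlapped between all neighbors except between Pdha1 (187 to 540 TPM) and Slc2a1 (69.1 to 151 TPM), and between Slc16a3 (2.19 to 18.8 TPM) and Slc2a3 (at most 0.0773 TPM).

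The level of hypoxia-responsive genes in the same tumors was summarized by the mean log2(TMM-scaled CPM + 1) of 22 HIF targets, none of which is among the 10 genes (Pdk1, named above, is 1 of them). It was 5.18, 4.99, 5.02, 5.76, 5.88 and 4.98 in tumors 1 to 6, in that order. Tumors 4 and 5 were thus set apart from the other 4 by a gap of 0.58, which is 64.9% of the whole range. Since the values fell into clusters of 2 and 4 tumors, fewer than the 6 that a correlation was held to need, no correlation with the index is given, and a relation of the 10 genes to it could not be tested. Of the 22 targets, 19 averaged at least 10 CPM, and Pgk1, at 0 to 1.80 CPM, did not pass the filter. With Pgk1 kept in the list, 13 of the 22 had tumors 4 and 5 as their highest pair, against 8.88% of all filtered genes. Of the 21 above the filter, 12 were highest in tumor 5, against 18.5%. Among them were Vegfa (36.3 to 139 CPM), the proline hydroxylases Egln1 (11.2 to 37.3 CPM) and Egln3 (65.4 to 194 CPM) and adrenomedullin (Adm, 18.3 to 115 CPM). Of the 22, 6 were highest in tumor 4, Bnip3 in tumor 1, Ier3 in tumor 2 and Stc2 in tumor 3. By summed CPM of the 22, tumor 4 was highest (3663.5), and tumor 5 (3111) lay below tumors 1 (3421) and 2 (3433). This sum leans on Ier3, with a mean of 1575 CPM against 301 CPM for Ndrg1 and 228 CPM for Bhlhe40, the next in level. It therefore says little about the other targets. Slc2a1, Slc16a1 and Car9 also had tumors 4 and 5 as their highest pair. Slc16a3 had tumors 5 and 1, Bsg tumors 5 and 6, and Ldha, a HIF target by background knowledge, tumors 1 and 3, or tumors 1 and 6 with TMM. Tumors 2 and 3 carry another mouse identifier prefix than the other 4, and the part of this in the patterns was not tested.

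The sequences just before the starts of these genes are shown because a HIF binding site has the core ACGTG or GCGTG, and because the genes that peaked in tumor 5 and those that peaked in tumor 1 can be compared in it. RefSeq promoters of GRCm38.p6 were at hand for 8 of the 10 genes, with 9 windows of the 250 bases before a start, 2 of them for Ldha. Slc2a3 and Bsg had no entry. Capitals mark ACGTG or GCGTG on either strand (read as CACGT or CACGC on the other), 5′ to 3′ along the gene's strand. Shown are the 4 windows without bases that GENCODE M21 counts as exon that best cover both peaks: chr3:104638414-104638663 for Slc16a1, chr7:46845554-46845803 for Ldha, chr9:66713436-66713685 for Car12, all on the plus strand, and chrX:160138431-160138680 on the minus strand for Pdha1. Those of Slc2a1, Slc16a3 and Car9 run into exons by 34, 14 and 60 bases and are described in words.
Slc16a1: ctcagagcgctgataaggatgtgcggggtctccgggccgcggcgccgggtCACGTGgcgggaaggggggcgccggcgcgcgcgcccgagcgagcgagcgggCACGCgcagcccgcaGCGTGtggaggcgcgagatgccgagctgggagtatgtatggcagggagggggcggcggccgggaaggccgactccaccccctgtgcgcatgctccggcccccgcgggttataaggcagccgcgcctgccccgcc
Ldha: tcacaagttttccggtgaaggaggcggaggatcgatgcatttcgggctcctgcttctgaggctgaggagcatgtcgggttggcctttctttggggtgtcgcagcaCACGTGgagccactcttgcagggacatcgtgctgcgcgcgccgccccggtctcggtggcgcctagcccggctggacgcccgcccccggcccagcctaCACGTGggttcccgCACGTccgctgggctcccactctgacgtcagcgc
Pdha1: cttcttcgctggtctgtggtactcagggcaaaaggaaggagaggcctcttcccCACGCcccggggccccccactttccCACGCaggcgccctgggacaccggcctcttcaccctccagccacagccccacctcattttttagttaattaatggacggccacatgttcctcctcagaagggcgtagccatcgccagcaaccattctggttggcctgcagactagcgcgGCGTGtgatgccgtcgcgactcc
Car12: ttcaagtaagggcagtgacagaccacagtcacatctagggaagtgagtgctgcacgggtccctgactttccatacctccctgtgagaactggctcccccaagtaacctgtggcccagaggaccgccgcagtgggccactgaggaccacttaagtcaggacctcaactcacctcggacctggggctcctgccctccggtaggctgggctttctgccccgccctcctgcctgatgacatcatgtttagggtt

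The Slc2a1 window has 1 match of each core, which begin 61 and 36 bases before the start, and that of Slc16a3 has 2 matches of ACGTG, 27 and 14 bases before it. The Car9 window has 1, 18 bases before the RefSeq start and within the 60 bases of the window that GENCODE M21 counts as exon. Ldha has the palindrome CACGTG at 2 places, each of which is an ACGTG match on both strands, and 1 further match, so 3 sites in all. Slc16a1 has 3 sites, 1 of them CACGTG, which is also the E-box bound by MYC. Car12 has 0 matches in this window. Pdha1 has 3 matches of GCGTG, and the second start of Ldha and that of Ldhb have 1 site each. One or the other core was found in 8 of the 9 windows and in 38.6% of 32851 windows of all genes, ACGTG in 5 of 9 and in 16.6% of all, GCGTG in 5 of 9 and in 28.2% of all, and CACGTG in 2 of 9 and in 6.02% of all. The cores occurred in genes of both peaks, with Ldha and Pdha1 highest in tumor 1 and Slc2a1, Slc16a1, Slc16a3 and Car9 in tumor 5. A match is a description of the letters and not a bound site.

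The genes whose pattern over the 6 tumors was most like that of Slc2a1, Ldha and Car9 were sought among 3760 genes whose mean reached 50 CPM, by Pearson's r of log2(TMM-scaled CPM + 1). With 6 points that share their libraries and depth, high values of r are found for many genes, and they are given as a description. For Slc2a1 they were Ddx19a (r = 0.986), Akirin2 (0.973) and Atic (0.967). For Ldha they were Prdx5, a peroxiredoxin (0.999), Pink1, a mitochondrial kinase (0.992), and Urah (0.992), and these values were 0.996, 0.988 and 0.982 without tumor 1. For Car9 they were Rnf4 (0.993), Vegfa (0.958) and Efr3a (0.958). Vegfa was the only 1 of these 9 genes that is also in the list of HIF targets.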

How the data were processed

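Cells sorted as CD45-EPCAM+, and according to the study's methods also negative for CD31 and PDGFRα, gave 6 QuantSeq FWD libraries, which read the 3′ ends of transcripts. Per the labels and the study's methods, the authors used bbduk for trimming, STAR 2.5 for alignment (GRCm38/mm10) and HTSeq for counting, and deposited raw counts per gene for each tumor. The annotation release, the strand setting and any collapsing by molecular identifiers are not given in the sources used here, and all intervals and floors hold for counting error alone. Not used were 5 lines without a gene, which held 16.1 to 41.4% of reads. Of 47643 identifiers, 47224 were found in GENCODE M21 (GRCm38), which gave symbols, positions and lengths. No pair of libraries agreed within counting noise (chi-square per degree of freedom of 20.7 to 132).

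CPM was taken over all genes. Genes were filtered with the rule of edgeR's filterByExpr (minimum count 10, minimum total 15, smallest group 3). Intervals were exact at 95%, Poisson for CPM and binomial for shares. The biological coefficient of variation came from an intercept-only edgeR fit with TMM factors. As the labels give 1 group, no test between groups was made. Planned correlations with the index of HIF targets were not reported, because the index fell into 2 clusters, called after its values were seen (largest gap over 50% of the range). The 10 genes and the lists were chosen with earlier results of these data known. Other genes named are the 4 highest of each list, family members near 0, and the 3 genes most like Slc2a1, Ldha and Car9; a few others are named after their values were seen. Alternatives were TMM, DESeq2's size factors, CPM without the 10 most abundant genes, no filter, lengths, and each tumor left out. The scripts were tested on simulated data. Software was R 4.3.3, edgeR 4.0.16, DESeq2 1.42.0 and Python 3.11.15. Values of a few listed genes are not reported here.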

Additional observations from a re-analysis of the deposited data

Results flagged for a closer look

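Dixon's test at the 95% level was used to find a tumor far from the other 5, with the distance to its neighbor given as a fraction of the whole range (the gap). Of 27 measures, 6 did so, and the nominal level alone would give about 1.35. The measures are not independent, and the share of all filtered genes that this test would flag was not computed. Tumor 1 held the highest CPM for 34.2% of all filtered genes, so 6 against 1.35 is not read as an excess. Pdha1 was at 787 CPM in tumor 1 against 370 CPM in the next, a gap of 0.822. Ldha was at 1269 CPM in tumor 1 against 765 CPM (gap 0.667), and Ldhb at 106 CPM against 60.4 CPM (gap 0.657). The library of tumor 1 also differs most from the others, and its part in these gaps was not tested. The share of Slc2a1 in its pair with Slc2a3 was 99.9% in tumor 4 and 100% in the others (gap 1.0), which is the single count of Slc2a3. The erythroid genes summed to 865 CPM in tumor 3 (gap 0.926), and the adipocyte genes to 2.18 CPM in the same tumor (gap 0.708), which is close to the floor.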

How the results depend on the processing

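All 90 alternative medians of the 10 genes, with TMM, DESeq2's size factors, CPM without the 10 most abundant genes or 1 tumor left out, moved by less than 1 SD between tumors. With 1 tumor left out this was fixed in advance. The median of 6 values then moves only to 1 of its 2 middle values, which lies within 1 SD. The median of Slc16a3, whose tumors lie in 2 separate ranges, still moved by over 1.5 times, from 13.6 CPM to 6.38 CPM without tumor 1, 4 or 5 and to 20.8 CPM without tumor 2, 3 or 6. TMM shifted tumor 6 by 0.14 on the log2 scale and the others by less than 0.1. It put tumor 6 above tumor 3 for Ldha (817 against 722 CPM) and above tumor 1 for Slc2a1 (161 against 152 CPM). Tumor 6 also passed tumor 5 for Ldhb (46.5 against 43.5 CPM) and tumor 4 for Car12 (153 against 150 CPM). The lowest tumors of Bsg and Car12 changed too, as given above. CPM without the 10 most abundant genes shifted all tumors by 0.17 to 0.35. With counts per union exon length, the median share of Ldha in its pair was 86.4% instead of 93.1%, and that of Car9 26.7% instead of 9.98%. A 3′ library does not call for division by length, so these shares show only the effect of that scale. Of 28 alternative shares, the other 26 moved by less than 1 SD, which was again fixed in advance for those with 1 tumor left out. With each tumor left out in turn, the biological coefficient of variation lay between 0.222 and 0.362 for Ldha and 0.215 and 0.385 for Ldhb. It lay between 0.212 and 0.41 for Pdha1 and 0.288 and 0.447 for Car12, the lowest value in each case without tumor 1. These 4 lowest values moved by more than a jackknife SE, and the other 68 of 72 alternative values by less. That SE was computed from the same values with 1 tumor left out, so staying within it says little about stability. The count of genes whose extreme tumors did not overlap (10736) stayed within 1.5 times in the 3 alternatives. The alternatives planned for correlations with the HIF index were not run, since no correlation was given. No paired analysis was possible because the labels give 1 group. Depth limits the lactate carriers and Car9 most, with as few as 16 counts in a tumor, and Slc2a3 could not be detected at this depth.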
